A study of Mus musculus with 10 samples.

Results

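Expression of the genes that sense RNA in the cytosol, pass the signal on to interferon production and receive type I interferon was examined in melanoma tumors grown in wild-type (WT) or Siah2-/- (Siah2 KO) mice. The set was chosen by gene symbol from this pathway. It holds 10 of the 770 genes with a probe in the data, all 10 were measured, and none was lost to a filter on low values. They are the RNA sensors *Ddx58* and *Ifih1*, the adaptor *Mavs*, the kinases *Tbk1* and *Ikbke*, the scaffold *Tank*, the transcription factor *Irf3*, the receptor chains *Ifnar1* and *Ifnar2*, and *Stat2*, which acts below the receptor. Cells of YUMMER1.7, a BRAF-mutant mouse melanoma line with a high mutation load, were injected under the skin of male mice a few weeks old. The hosts either carried Siah2, a RING-type ubiquitin ligase (5 WT tumors, replicates 2, 3, 4, 5 and 6), or lacked it (5 Siah2 KO tumors, replicates 1, 2, 3, 5 and 6). The injected line was the same in both groups, so that a Siah2 KO tumor holds melanoma cells with Siah2 and host cells without it. The design text of the series names another line (Yumm1.5), another gene (Rnf5) and day 10, in conflict with the labels of the samples, and the paper's legend also has day 10. The labels were used, by which the tumors were collected on day 11, no further treatment is stated, and 100 ng of RNA per tumor was read with the NanoString PanCancer Immune Profiling panel, in which barcoded probes are counted without amplification. No probe for *Siah2* is among those analysed here, so the deletion could not be checked in these tumors. The RNA came from whole tumors, in which fewer cells of a type and less RNA per cell cannot be told apart.

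RIG-I, the product of *Ddx58*, and MDA5, the product of *Ifih1*, are helicases that bind viral or misplaced RNA in the cytosol, RIG-I mainly short RNA with a triphosphate end and MDA5 mainly long duplexes. Both hand the signal to MAVS on the mitochondrial surface, where the kinases TBK1 and IKKε (the product of *Ikbke*), held by scaffolds such as TANK, phosphorylate IRF3, which then enters the nucleus and switches on interferon beta. Secreted interferon binds the receptor pair IFNAR1 and IFNAR2 on the same or other cells, and the kinases JAK1 and TYK2 bound to that pair activate STAT2, which takes part in a complex with IRF9 that switches on interferon-stimulated genes. Some of those genes encode parts of the pathway itself, among them *Ddx58*, *Ifih1* and *Stat2*.

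The stretches of DNA at the gene starts differ among the 10 genes in the elements they hold, and they are shown as background. Whether the elements bear on which genes rose was not tested. In RefSeq (GRCm38.p6), the 10 genes have 13 start windows of 300 bases, from 250 bases before the start of transcription to 50 after it. A pair of GAAA copies 2 bases apart, the core of the interferon-stimulated response element, was searched on both strands. It occurred in windows of 3 of the 10 genes, *Ddx58*, *Ifih1* and *Stat2*, against 3.99% of all 27025 genes of the table. It was in 3 of 26 matched other genes of the pathway (11.5%) and 9 of 19 matched interferon-stimulated genes (47.4%). The letters TTCNNNGAA, a palindromic core bound by STAT dimers, were searched in the same way. No match of one overlapped a match of the other. The letters TTCNNNGAA occurred at *Ifnar1* and *Ifnar2*, 2 of the 10 genes (20%), against 9.55% of all genes. They were in 7 of 26 matched other genes of the pathway (26.9%) and 4 of 19 matched interferon-stimulated genes (21.1%). Neither was found in the windows of *Mavs*, *Tbk1*, *Ikbke*, *Tank* or *Irf3*, which says only that these letters are not in these windows. The matches are in capitals below, on the strand of the gene, with positions counted from 1 at the first transcribed base and without a position 0. In *Ifih1* the match lies at 33 to 42 bases after the start (chr2:62646206-62646235, minus strand), in *Ddx58* at 3 to 12 after it in the opposite orientation (chr4:40239804-40239833, minus strand), in *Ifnar2* at -214 to -206 (chr16:91372559-91372588, plus strand) and in *Ifnar1* at -5 to 4 (chr16:91485200-91485229, plus strand).
Ifih1: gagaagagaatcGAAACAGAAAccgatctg
Ddx58: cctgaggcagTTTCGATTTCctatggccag
Ifnar2: tgccaaggccTTCCTGGAAgaagagagtac
Ifnar1: ggcgggggcgTTCACGGAAggggcggggcg

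*Stat2* and *Ikbke* were the members with the largest group differences, and their 250 bases before the start are given in full, *Stat2* from chr10:128270248-128270497 (plus strand) and *Ikbke* from chr1:131279564-131279813 (minus strand). In *Stat2* the capitals mark the GAAA pair, at -222 to -213 in the opposite orientation. The *Ikbke* stretch has no capitals, as it holds no match to either set of letters.
Stat2: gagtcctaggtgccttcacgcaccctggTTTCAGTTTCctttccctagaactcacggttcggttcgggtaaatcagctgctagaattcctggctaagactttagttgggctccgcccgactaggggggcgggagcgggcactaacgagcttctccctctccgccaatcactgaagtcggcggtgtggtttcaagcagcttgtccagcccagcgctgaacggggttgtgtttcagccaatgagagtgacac
Ikbke: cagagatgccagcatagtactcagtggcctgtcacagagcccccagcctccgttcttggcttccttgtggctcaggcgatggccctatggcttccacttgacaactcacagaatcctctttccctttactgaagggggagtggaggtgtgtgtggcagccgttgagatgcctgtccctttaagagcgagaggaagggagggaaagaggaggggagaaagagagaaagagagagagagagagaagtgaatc

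*Ikbke*, *Stat2* and *Tank* rose and *Ifnar1* fell in Siah2 KO tumors, while *Ddx58*, *Ifih1*, *Mavs*, *Tbk1*, *Irf3* and *Ifnar2* did not pass the test. Values are normalized counts, scaled by the authors to 20 reference genes, and the groups were compared on the log2(value + 1) scale, Siah2 KO minus WT, by limma with Benjamini-Hochberg adjustment over all 770 probes. A gene is said to have risen or fallen at an adjusted p under 0.05. Beside it stands a two-sided exact permutation p over all ways to divide the tumors into 5 and 5, whose smallest possible value is 0.00794. By this count 3 of the 10 genes rose and 1 fell, where 31.3% of all probes rose and 9.74% fell, 41% in all. The median log2 fold change of the 10 genes was 0.25, and that of all probes was 0.24, so both the shares and the median of the 10 genes were near those of the panel. The same 4 genes were those whose groups did not overlap, 3 higher and 1 lower in every Siah2 KO tumor, where 24.5% and 7.01% of all probes were so placed. By exact permutation alone, *Ifih1* was also at a p under 0.05, which gave 5 of the 10 genes, where 48.4% of all probes were. Probes differ in efficiency, and no level is compared between genes here.

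**Figure D1:**
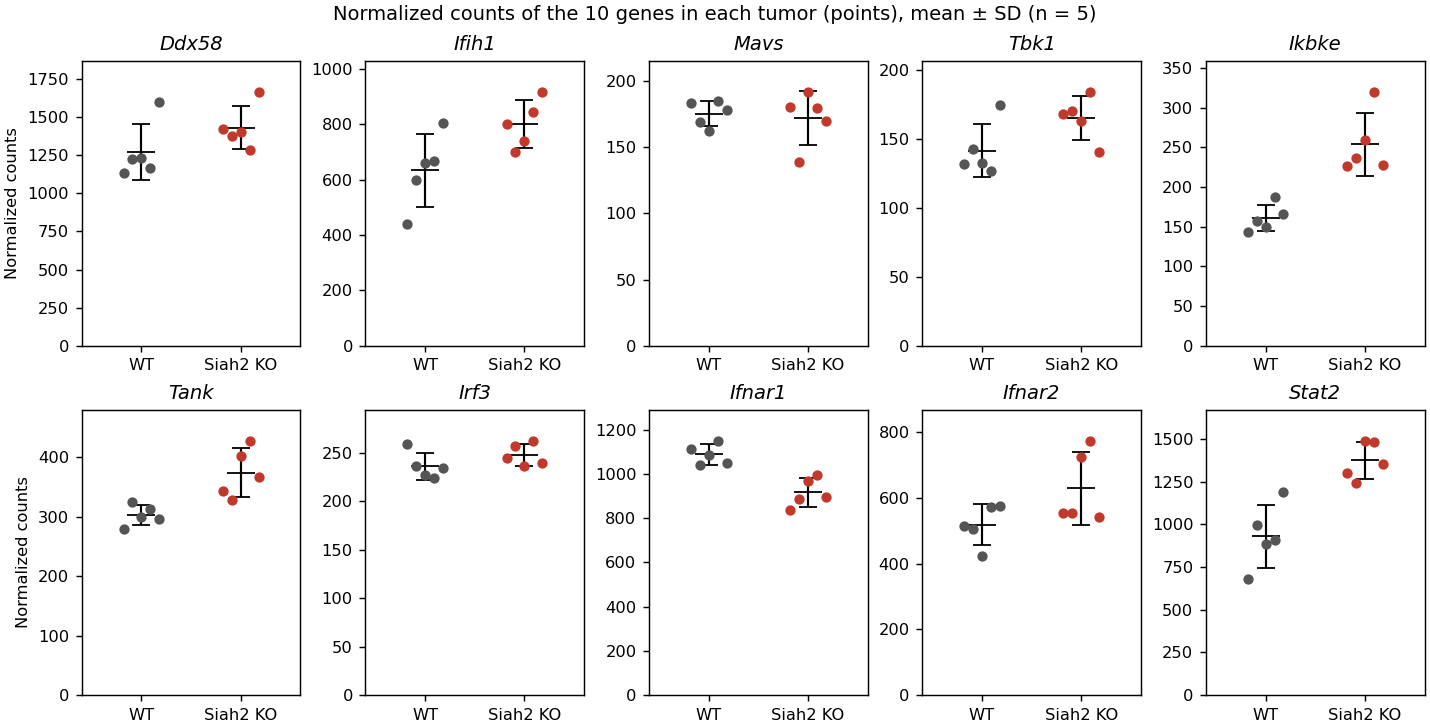
Normalized counts (vertical axis of each panel, starting at 0) of the 10 genes in each of the 5 WT and 5 Siah2 KO tumors (points), with the mean and SD of each group as bars. Only in the panels of *Ikbke*, *Tank*, *Ifnar1* and *Stat2* do the points of the groups not overlap, with *Ifnar1* the one that is lower in Siah2 KO tumors.

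The tumors differed across the whole panel, and marker genes of leukocytes and of fibroblasts moved with the genotype. The summed normalized counts lay between 512955 and 585366 in WT and between 575773 and 741789 in Siah2 KO tumors (exact permutation p = 0.0159). Of 6 measured leukocyte genes (*Ptprc*, *Itgb2*, *Lcp1*, *Cd53*, *Cd48* and *Cd37*) 5 rose and 1 did not pass, with summed counts of 3925 to 4708 in WT and 5864 to 8801 in Siah2 KO tumors. Of 6 measured fibroblast genes 5 (*Fap*, *Col1a1*, *Col3a1*, *Pdgfrb* and *Fn1*) fell and *Thy1*, which T cells also express, rose, with summed counts of 29837 to 39455 in WT and 18236 to 22954 in Siah2 KO tumors. Of 11 T cell genes 8 rose, and of 8 macrophage genes 4 rose and 2 fell, where 31.3% of all probes rose and 9.74% fell. Of 6 NK cell genes 4 rose, of 7 B cell genes 1, of 5 neutrophil genes 1 and of 4 dendritic cell genes 1, and 0 fell. Of 2 plasmacytoid dendritic cell genes 0 rose or fell, and of 7 endothelial genes 1 rose and 2 fell. Near the lowest value in all tumors were 1 NK cell, 2 B cell and 1 neutrophil gene, and no gene of the other cell type lists. The part of these lists in the results on the 10 genes was not tested. Of 11 melanoma markers only *Mcam* and *S100b* were measured. *Mcam* did not pass (121 ± 24.9 normalized counts in Siah2 KO, 135 ± 11.9 in WT, SD, n = 5 each, adjusted p = 0.364 in limma). *S100b* fell (1.72 ± 0.559 and 14.6 ± 7.96, adjusted p = 0.000555 in limma). It had 6.29 to 26.67 in WT tumors and, close to the lowest value, 1.03 to 2.51 in Siah2 KO tumors. With so few markers the share of melanoma cells could not be followed.

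Neither of the RNA sensors passed the test, and in both the groups overlapped through 1 WT tumor, replicate 6. *Ddx58*, which encodes RIG-I, had 1131, 1225, 1231, 1168 and 1595 normalized counts in WT replicates 2, 3, 4, 5 and 6, and 1419, 1377, 1400, 1285 and 1665 in Siah2 KO replicates 1, 2, 3, 5 and 6. WT replicate 6 stood far above the other WT tumors and above all Siah2 KO tumors but replicate 6, while each of the other WT tumors was below every Siah2 KO tumor. The log2 fold change was 0.18 (SE 0.115, 95% interval -0.0801 to 0.432, adjusted p = 0.245 in limma, exact permutation p = 0.159). *Ifih1*, which encodes MDA5, had 442, 599, 660, 668 and 806 normalized counts in the WT tumors in the same order, and 801, 699, 740, 845 and 919 in the Siah2 KO tumors. WT replicate 2 was the lowest tumor by a wide margin, and WT replicate 6 lay within the Siah2 KO range. The log2 fold change of *Ifih1* was 0.35 (SE 0.155, 95% interval 0.00953 to 0.699), with an exact permutation p of 0.0476 and an adjusted p of 0.092 in limma. Without WT replicate 6 the log2 fold change was 0.45 (adjusted p = 0.0387 in limma), and without WT replicate 2 it was 0.23 (adjusted p = 0.17).

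The adaptor *Mavs* and the kinase *Tbk1* did not pass the test either. *Mavs* had 183, 169, 162, 184 and 178 normalized counts in the WT tumors and 181, 139, 192, 180 and 170 in the Siah2 KO tumors. Siah2 KO replicate 2 was the lowest and Siah2 KO replicate 3 the highest of all tumors, and the other 8 lay between 162 and 184. The log2 fold change of *Mavs* was -0.03 (SE 0.101, 95% interval -0.259 to 0.192, adjusted p = 0.81 in limma), and without Siah2 KO replicate 2 its sign turned, to 0.04. *Tbk1*, the kinase that phosphorylates IRF3 in most cell types, had 132, 143, 132, 126 and 174 normalized counts in the WT tumors and 168, 171, 163, 184 and 141 in the Siah2 KO tumors. The groups overlapped through replicate 6 of each genotype. WT replicate 6 exceeded all Siah2 KO tumors but replicate 5, and Siah2 KO replicate 6 lay below WT replicates 3 and 6. With both set aside, the remaining WT tumors were lower than the remaining Siah2 KO tumors. The log2 fold change of *Tbk1* was 0.23 (SE 0.113, 95% interval -0.0229 to 0.478, adjusted p = 0.132 in limma, exact permutation p = 0.0873), and without WT replicate 6 its adjusted p in limma was 0.0388.

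*Ikbke*, which encodes the inducible kinase IKKε, showed the largest group difference of the 10 genes. It had 144, 157, 150, 187 and 167 normalized counts in the WT tumors and 226, 236, 259, 320 and 227 in the Siah2 KO tumors. The 5 Siah2 KO tumors were all above the highest WT tumor, and Siah2 KO replicate 5 was the highest. The mean was 254 ± 39.4 in Siah2 KO against 161 ± 16.9 in WT (SD, n = 5 each), a 1.57-fold rise (log2 fold change 0.65, SE 0.12, adjusted p = 0.00218 in limma, exact permutation p = 0.00794). It was the 194th highest log2 fold change of the 770 probes. The rise held with each tumor left out in turn, at log2 fold changes between 0.56 and 0.70, and after the tumors were brought to a common median of the endogenous probes (median scaling), at 0.38 (adjusted p = 0.00382 in limma). Taken relative to the median log2 value of the leukocyte list in the same tumor, the difference of *Ikbke* was -0.19 (adjusted p = 0.137 in limma), and with the reference gene factor removed and the tumors scaled to the positive controls it was 0.48 and did not pass (adjusted p = 0.4).

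*Tank*, which encodes a scaffold that binds TRAF proteins and both kinases, rose by less. It had 279, 325, 299, 313 and 297 normalized counts in the WT tumors and 344, 329, 403, 428 and 367 in the Siah2 KO tumors. The groups did not overlap, but Siah2 KO replicate 2 lay barely above WT replicate 3. The mean was 374 ± 41.1 in Siah2 KO against 303 ± 17.2 in WT (SD, n = 5 each), a 1.23-fold rise (log2 fold change 0.30, SE 0.0951, adjusted p = 0.0283 in limma, exact permutation p = 0.00794). The call was lost with any of 5 tumors left out, at adjusted p in limma of 0.0684 without WT replicate 2, 0.059 without WT replicate 4, 0.0559 without WT replicate 6, 0.0659 without Siah2 KO replicate 3 and 0.0544 without Siah2 KO replicate 5. Under median scaling its difference was 0.04 (adjusted p = 0.76 in limma), under quantile normalization it turned to -0.02, and with the positive controls it was 0.14 (adjusted p = 0.898).

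*Irf3*, the transcription factor that the kinases activate by phosphorylation, did not pass the test and varied little among the tumors. It had 259, 236, 227, 224 and 234 normalized counts in the WT tumors and 245, 257, 236, 263 and 240 in the Siah2 KO tumors. The groups overlapped over most of their range, and the coefficient of variation was 4.57% in Siah2 KO and 5.81% in WT tumors. The log2 fold change was 0.07 (SE 0.076, adjusted p = 0.478 in limma), with a 95% interval of -0.0974 to 0.241. The probe counts RNA and is blind to phosphorylation.

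Of the receptor chains *Ifnar1* fell and *Ifnar2* did not pass the test. Both genes lie on the plus strand of chromosome 16, with *Il10rb*, which encodes a receptor chain for interleukin 10 and lambda interferons, between them. *Ifnar1* had 1113, 1041, 1088, 1151 and 1049 normalized counts in the WT tumors and 836, 886, 969, 997 and 895 in the Siah2 KO tumors. All Siah2 KO tumors lay below the lowest WT tumor. The mean was 917 ± 65.2 in Siah2 KO against 1088 ± 45.6 in WT (SD, n = 5 each), 0.841 times the WT level (log2 fold change -0.25, SE 0.0793, adjusted p = 0.0289 in limma, exact permutation p = 0.00794). The call was lost with any of 5 tumors left out, at adjusted p in limma of 0.0623 without WT replicate 2, 0.06 without WT replicate 4, 0.0634 without WT replicate 5, 0.07 without Siah2 KO replicate 1 and 0.0574 without Siah2 KO replicate 2, and with scaling to the 10 least variable reference genes, at 0.0827. Under median scaling the fall was larger, at -0.52 (adjusted p = 0.000834 in limma), and with the positive controls it was -0.41 and did not pass (adjusted p = 0.485). *Ifnar2* had 513, 504, 424, 573 and 576 normalized counts in the WT tumors and 552, 553, 725, 774 and 542 in the Siah2 KO tumors. Siah2 KO replicates 3 and 5 were far above the rest, and the other 3 Siah2 KO tumors lay within the WT range. The log2 fold change of *Ifnar2* was 0.27 (SE 0.138, 95% interval -0.0348 to 0.578, adjusted p = 0.14 in limma), and under median scaling it was 0.01.

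*Stat2*, which encodes the STAT that carries the activation domain of the complex formed below the receptor, rose. It had 682, 995, 883, 906 and 1191 normalized counts in the WT tumors and 1304, 1246, 1491, 1485 and 1353 in the Siah2 KO tumors. All Siah2 KO tumors exceeded the highest WT tumor, and the WT tumors were spread more widely, from replicate 2 at the bottom to replicate 6 near the Siah2 KO range. The mean was 1376 ± 109 in Siah2 KO against 932 ± 185 in WT (SD, n = 5 each), a 1.5-fold rise (log2 fold change 0.58, SE 0.141, adjusted p = 0.00789 in limma, exact permutation p = 0.00794). The rise held with each tumor left out in turn, at log2 fold changes between 0.48 and 0.68. It no longer passed under median scaling (0.32, adjusted p = 0.062 in limma), quantile normalization (0.20, adjusted p = 0.157) or scaling to the positive controls (0.42, adjusted p = 0.485), and relative to the leukocyte list it was -0.25 (adjusted p = 0.172).

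**Figure D2:**
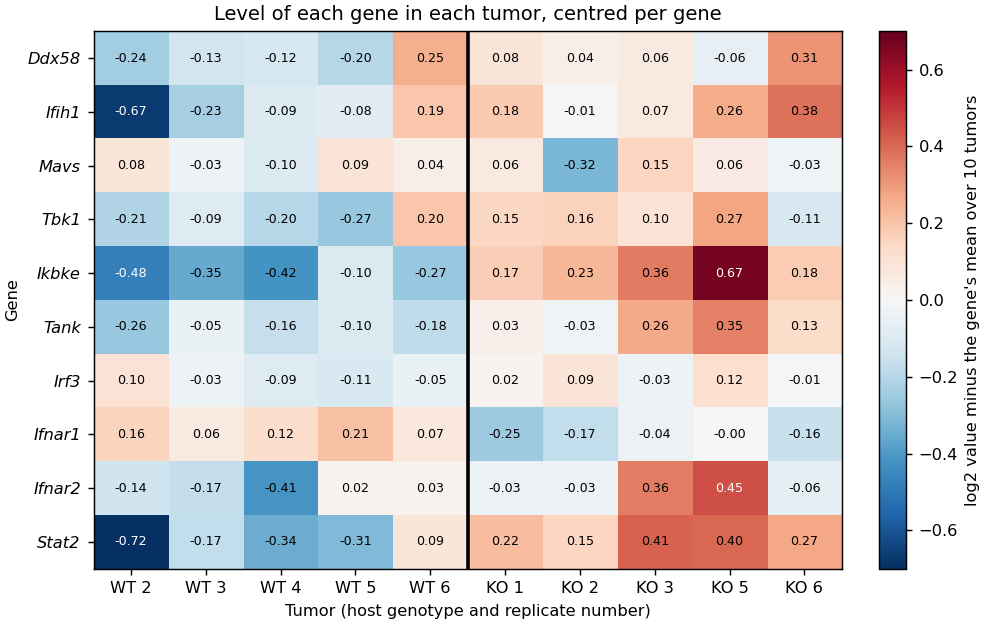
Log2(value + 1) of each gene (rows) in each tumor (columns, WT left of the line and Siah2 KO, marked KO, right of it) minus the gene's mean over the 10 tumors, with red above and blue below that mean. WT 2 is lowest in *Stat2* (-0.72) and *Ifih1* (-0.67), KO 5 is highest in *Ikbke* (0.67), and the row of *Ifnar1* runs from above 0 in WT to at or below 0 in KO tumors.

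Some tumors stood apart within their group in several genes at once. WT replicate 6 was the highest WT tumor in *Ddx58*, *Ifih1*, *Tbk1*, *Ifnar2* and *Stat2*, and WT replicate 2 the lowest WT tumor in *Ddx58*, *Ifih1*, *Ikbke*, *Tank* and *Stat2*. The summed normalized counts of 23 interferon-stimulated genes had the same extremes in WT tumors, with 16465 in replicate 2 and 27110 in replicate 6, while replicates 3, 4 and 5 had 21809, 20731 and 20765. In Siah2 KO tumors the sums were 30285, 25864, 33153, 30709 and 31338 in replicates 1, 2, 3, 5 and 6, so that WT replicate 6 exceeded Siah2 KO replicate 2. Siah2 KO replicate 5 was the highest tumor in *Tbk1*, *Ikbke*, *Tank*, *Irf3* and *Ifnar2*. It also had the highest sum of the leukocyte list, 8801, and the highest sum over the whole panel, 741789.

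In a ratio of 2 genes of like role within a tumor, a single scaling factor for that tumor cancels, while quantile normalization does not. By permutation 4 of 5 such ratios differed between the groups. Of all single probes, 48.4% were at an exact permutation p under 0.05, and no share over other gene pairs was taken. Each of the 4 sets a gene that rose or fell against a partner that did not pass. They reuse those values and are no separate support for the calls. *Ifnar2* over *Ifnar1* was 0.461, 0.484, 0.39, 0.498 and 0.55 in the WT tumors and 0.66, 0.624, 0.748, 0.776 and 0.606 in the Siah2 KO tumors. The groups did not overlap, and the ratio was higher in Siah2 KO by 1.44-fold on average (log2 difference 0.52, exact permutation p = 0.00794, 0.0265 after Benjamini-Hochberg adjustment over the 5 ratios). Within each group these are ratios of the signals of 2 probes and not of molecules. *Ikbke* over *Tbk1* was between 0.956 and 1.48 in WT but between 1.34 and 1.74 in Siah2 KO, with WT replicate 5 the WT tumor inside the Siah2 KO range (log2 difference 0.42, exact permutation p = 0.0238, adjusted 0.0298). *Tank* over *Mavs* was between 1.52 and 1.92 in WT and between 1.90 and 2.38 in Siah2 KO tumors (log2 difference 0.33, exact permutation p = 0.0159, adjusted 0.0265). *Stat2* over *Irf3* was between 2.63 and 5.09 in WT and between 4.85 and 6.32 in Siah2 KO tumors (log2 difference 0.51, exact permutation p = 0.0159, adjusted 0.0265). In these last ratios 1 Siah2 KO tumor, replicate 1 for *Tank* over *Mavs* and replicate 2 for *Stat2* over *Irf3*, lay within the WT range. *Ddx58* over *Ifih1* did not pass, with 1.75 to 2.56 in WT and 1.52 to 1.97 in Siah2 KO tumors (log2 difference -0.18, exact permutation p = 0.159, also after adjustment), with -0.23 without WT replicate 5 (exact permutation p = 0.0476) and -0.09 without WT replicate 2 (exact permutation p = 0.325).

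**Figure D3:**
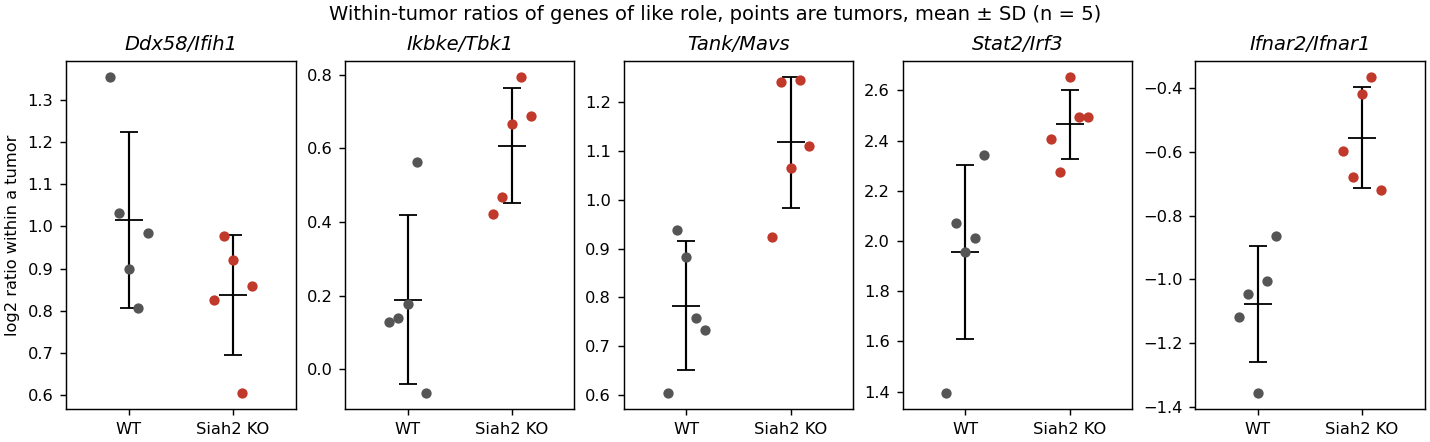
Log2 ratio of 2 genes within each tumor (points, vertical axes do not start at 0) for the 5 gene pairs, with the mean and SD of the 5 tumors of each group. In *Ifnar2* over *Ifnar1* the WT tumors lie between -1.36 and -0.86 and the Siah2 KO tumors between -0.72 and -0.37.

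What the tumors were scaled to changed the size of these differences. Under median scaling, the log2 fold changes shifted by a median of -0.26, *Ikbke* was the only one of the 10 genes that rose, and *Ifnar1* and *Mavs* (-0.30, adjusted p = 0.0363 in limma) fell, where 21.2% of all probes rose and 19.7% fell. Under this scaling *Ddx58*, *Tbk1* and *Irf3* changed sign, to -0.09, -0.04 and -0.19, without passing. Relative to the leukocyte list, whose median log2 value was between 8.68 and 9.16 in WT and between 9.59 and 10.2 in Siah2 KO tumors, 0 of the 10 genes rose in limma, at an adjusted or an unadjusted p under 0.05, and 8 fell, where 5.19% of all probes rose and 54.3% fell. *Ikbke* and *Stat2* were those that did not pass on that scale. The median of the list is set in each tumor by its middle probes, *Cd48* with *Itgb2* or *Ptprc*. It was 0.83 higher in Siah2 KO tumors, where the median log2 fold change of the list was 0.68. *Cd53* (1.10) and *Itgb2* (1.16) rose by more than 0.83. *Ptprc* (0.78), *Cd48* (0.58), *Lcp1* (0.49) and *Cd37* (0.01) differed by less. Values on that scale rest on those middle probes. *Ifnar1* was lower in Siah2 KO tumors under all 14 alternatives, at log2 differences between -1.08 and -0.21.

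**Figure D4:**
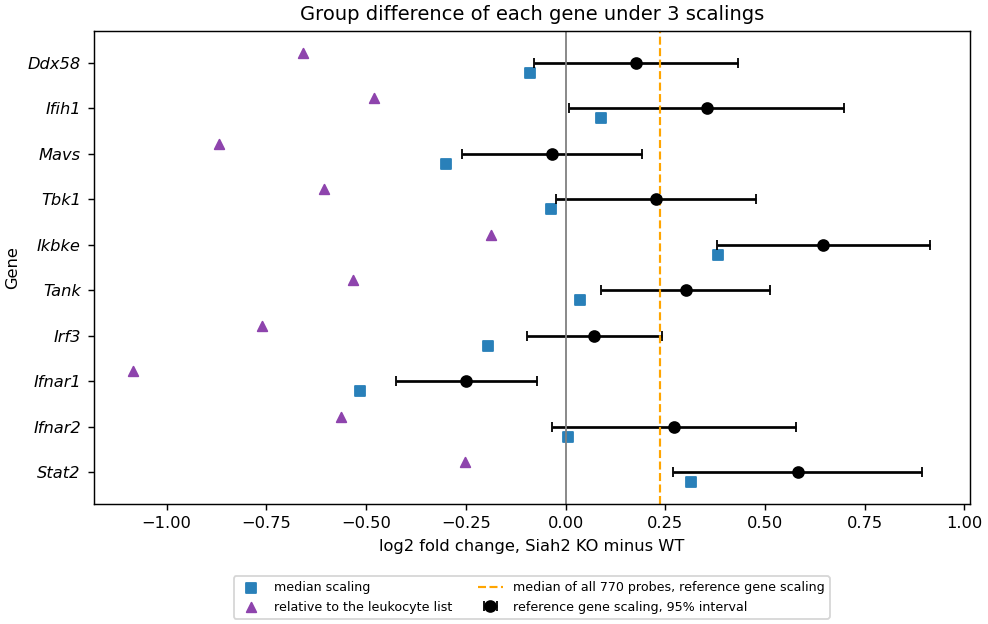
Log2 fold change of each gene, Siah2 KO minus WT (5 tumors each), with scaling to the reference genes (black points, bars are 95% intervals), with scaling to the median (blue squares) and relative to the leukocyte list (purple triangles). The dashed line is the median of all 770 probes, 0.24, and only *Ifnar1* and *Mavs* have black points left of 0.

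The genes whose pattern over the 10 tumors was most like that of the members that rose or fell were found by the root mean square distance of the centred log2 values, over 601 probes whose mean was 20 or more. Nearest to *Ikbke* were *Bid* (distance 0.087, against a median of 0.35 over those 601 probes), *Lyn* (0.098) and *Ptprc* (0.10). They encode a BH3-only protein, a Src-family kinase of blood cells and the leukocyte antigen CD45. Nearest to *Tank* were *Bax* (0.075), *Cd47* (0.084) and *Psma2* (0.085), which encode an apoptosis effector, a surface protein that restrains phagocytosis and a proteasome subunit. *Ifnar1* lay nearest to *Tubb5* (0.082), *Tgfbr2* (0.091) and *Oaz1* (0.091), of which *Tubb5* and *Oaz1* belong to the 20 reference genes. *Stat2* lay nearest to *Ifi35* (0.11) and *Irf7* (0.11), both interferon-stimulated, and *Psmb10* (0.13), a subunit of the immunoproteasome.

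The 5 type I and III interferons measured here were close to the lowest value of the table. *Ifnb1*, the interferon that IRF3 switches on first, had between 1 and 4.72 normalized counts in WT and between 1.48 and 9.77 in Siah2 KO tumors. The ranges of *Ifna1* (1.31 to 4.93 in WT and 1.03 to 7.55 in Siah2 KO tumors), *Ifna2* (1 to 1.32 and 1.03 to 6.44), *Ifna4* (2.18 to 3.75 and 1.11 to 7.57) and *Ifnl2* (1 to 2.33 and 1.03 to 6.97) overlapped as well. None of the 5 genes passed in limma, 1 of them, *Ifnb1*, had an unadjusted p under 0.05, and 0 had an exact permutation p under 0.05. Without WT replicate 6, or without Siah2 KO replicate 5, *Ifnb1* passed, which made the count 1. No fold is given for genes at so few counts. Interferon gamma is not on this list, and its gene was not examined here. The paper reports that gene as raised in the knockout tumors. The only other interferon receptor chain measured, *Ifngr1*, which binds interferon gamma, had 1828 ± 360 normalized counts in Siah2 KO against 1807 ± 125 in WT (SD, n = 5 each, adjusted p = 0.999 in limma, 95% interval of the log2 fold change -0.286 to 0.284). Under quantile normalization its difference was -0.44 (adjusted p = 0.00505 in limma), and relative to the leukocyte list it was -0.83 (adjusted p = 0.000186).

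Of 36 other measured genes of the pathway, 16 rose and 0 fell in limma, where 31.3% of all probes rose and 9.74% fell, and 0 were lower at an unadjusted p under 0.05 in limma. The median log2 fold change was 0.24, equal to that of all probes. Under median scaling 11 of the 36 rose and 2, *Traf3* and *Atg12*, fell, and under quantile normalization 8 rose and 5 fell, where 19.9% of all probes rose and 23.5% fell. Relative to the leukocyte list 0 rose, also at an unadjusted p under 0.05 in limma, and 21 fell, with a median of -0.59, where 5.19% of all probes rose and 54.3% fell. The largest rises were in *Zbp1*, a sensor of Z-form nucleic acid (log2 fold change 1.06, SE 0.156, adjusted p = 0.00076 in limma), *Tlr8*, an endosomal RNA sensor (1.02, SE 0.171, adjusted p = 0.00133), *Socs1*, an inhibitor of JAK kinases (0.98, SE 0.24, adjusted p = 0.00826), and *Irf1*, a transcription factor induced by interferons (0.91, SE 0.205, adjusted p = 0.0053). Relative to the leukocyte list these 4 genes were at 0.08 to 0.23 and did not pass (adjusted p between 0.206 and 0.741 in limma). *Zbp1* was between 1117 and 1940 normalized counts in WT and between 2595 and 3682 in Siah2 KO tumors, without overlap. The kinases of the receptor did not pass, with log2 fold changes of 0.05 for *Jak1* (95% interval -0.112 to 0.205) and 0.03 for *Tyk2* (95% interval -0.346 to 0.405). Both turned negative under median scaling without passing, at -0.22 and -0.23. Under quantile normalization *Jak1* fell (-0.37, adjusted p = 0.00338 in limma) and *Tyk2* did not pass (-0.27, adjusted p = 0.0686). Relative to the leukocyte list both fell, at -0.79 (adjusted p = 0.001 in limma) and -0.80 (adjusted p = 0.000706).

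Of 23 measured interferon-stimulated genes, 12 rose, 1 fell and 10 did not pass, where 31.3% of all probes rose and 9.74% fell, and their median log2 fold change was 0.58 against 0.24 for all probes. Of those that did not pass, *Mx1* (1 to 2.18 normalized counts in WT and 1.03 to 1.6 in Siah2 KO tumors) and *Ifi44l* (1 to 3.65 and 1.03 to 11.41) were near the lowest value. Under median scaling 6 rose and 1 fell, with a median of 0.31, where 21.2% of all probes rose and 19.7% fell. Relative to the leukocyte list 1, *Ifitm1*, rose and 6 fell, with a median of -0.25, where 5.19% of all probes rose and 54.3% fell. The 6 include *Mx1*, whose log2 fold change was 0.02 before the list median was taken off. With the positive controls 1 rose and 0 fell, where 7.79% of all probes rose and 4.55% fell. *Ifitm1*, which blocks the entry of viruses, rose from 256 to 282 normalized counts in WT tumors to between 914 and 1288 in Siah2 KO tumors (log2 fold change 1.96, SE 0.109, adjusted p = 3.94e-06 in limma). *Xaf1*, which promotes apoptosis (0.96, SE 0.135, adjusted p = 0.000609), *Rsad2*, which encodes viperin (0.94, SE 0.216, adjusted p = 0.0062), and *Herc6*, a ligase for ISG15 in mice (0.91, SE 0.186, adjusted p = 0.0034), followed. Relative to the leukocyte list these last genes were at 0.13, 0.10 and 0.08 and did not pass (adjusted p between 0.522 and 0.772 in limma). *Ifi27* was the gene that fell, with 799.5 to 855 normalized counts in WT and 506 to 718 in Siah2 KO tumors (log2 fold change -0.45, SE 0.098, adjusted p = 0.00459 in limma). *Stat2* lay at the median of this list, and *Ddx58* and *Ifih1*, whose start windows hold the GAAA pair as *Stat2* does, lay below it.

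**Figure D5:**
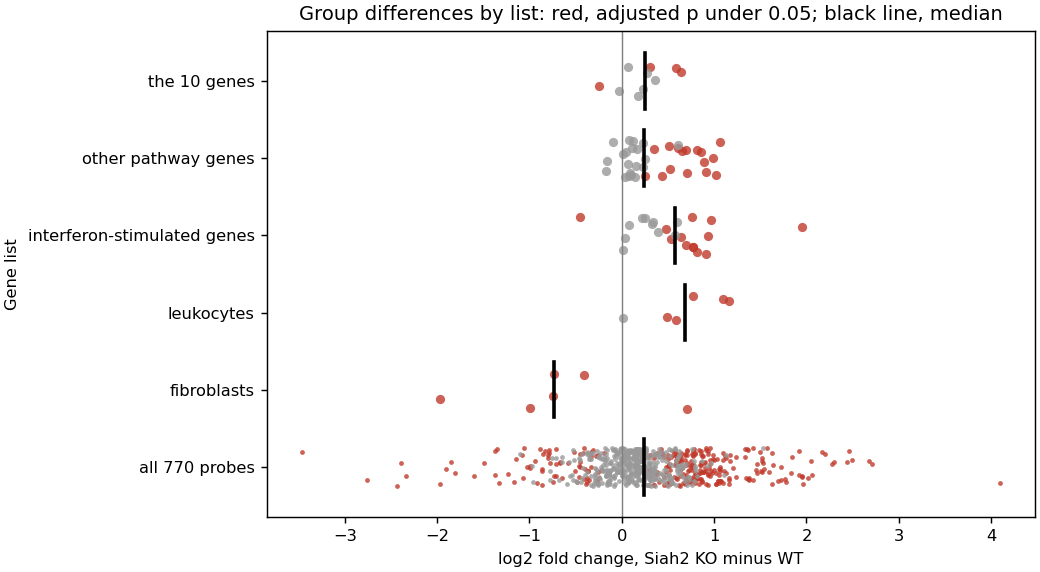
Log2 fold change of each gene (points, spread vertically only for legibility), Siah2 KO minus WT, for the 10 genes, the other pathway genes, the interferon-stimulated genes, the leukocyte and fibroblast markers and all 770 probes. Red points had an adjusted p under 0.05 and black lines are medians, 0.25 for the 10 genes, 0.24 for the other pathway genes, 0.58 for the interferon-stimulated genes and 0.24 for all probes.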

How the data were processed

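The authors deposited 1 table of normalized counts, a signal per probe, for 10 tumors (770 gene probes, of which 20 are reference genes, and 14 control probes). Per the methods, nSolver applied quality control and then scaled each tumor by its 20 reference genes (geometric mean). The steps between low values show that a background was also taken off and that low values were raised to a floor, so no count model was used. Groups and replicate numbers came from the sample titles. No batch is given.

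Log2(value + 1) was compared by limma 3.58.1 (functions lmFit and eBayes; R 4.3.3), adjusted over 770 probes, and by two-sided exact permutation. Ratios of 5 gene pairs were tested by permutation and adjusted over the 5. The steps were tested on simulated data. The genes and lists were chosen with earlier results of these data known. Named are all 10 genes, the ligands and other receptor chains, the 4 largest log2 fold changes at an adjusted p under 0.05 with a mean of at least 20 in the other pathway genes and in the interferon-stimulated genes, the 3 genes most like each member that rose or fell, and markers. *Jak1*, *Tyk2*, *Ifi27*, *Traf3* and *Atg12* were named after their values were seen. The labels do not say whether replicates share a litter or cartridge, so p-values measure the spread between these tumors. The 14 alternatives, besides leaving out each of the 10 tumors, changed the scaling (5), low values (2), pseudocount (2), probes (1), test (2) or block (2). Promoter windows came from RefSeq (GRCm38.p6). Figures used matplotlib 3.10.9 in Python 3.11.15.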

Additional observations from a re-analysis of the deposited data

Results flagged for a closer look

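In *Ddx58*, WT replicate 6 stood apart from its group, with 1595 normalized counts. Its gap to the next WT tumor took up 0.755 of the range of the 5 WT tumors on the log2 scale, past Dixon's critical value for 5 samples. It was the only one of 20 groups of 5 tested in this way (10 genes in 2 genotypes) that passed, and chance passes about 1 in 20.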

How the results depend on the processing

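Of the 10 genes 4 passed, and under the alternatives that count was 8 relative to the leukocyte list and 0 with the reference gene factor removed and the tumors scaled to the positive controls, where it was 0 also at an unadjusted p under 0.05 in limma and by exact permutation, and between 2, without WT replicates 2 or 4, and 5, without WT replicate 6, with each tumor left out. By exact permutation 5 genes were at a p under 0.05, 9 relative to the leukocyte list, 0 with the positive controls and between 4 and 7 with each tumor left out. With the positive controls 95 of all probes passed, of the other pathway genes 0 (6 at an unadjusted p under 0.05, 6 by exact permutation) and of the interferon-stimulated genes 1. The latter count was 7 under median scaling (6 higher, 1 lower), quantile normalization (5 higher, 2 lower) and relative to the leukocyte list (1 higher, 6 lower), where 1 ligand passed. With each tumor left out, 268 to 334 probes, 12 to 16 other pathway genes, 11 to 15 interferon-stimulated genes and 0 to 1 ligands (1 without WT replicate 6 or Siah2 KO replicate 5) passed.

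Directions turned under quantile normalization for *Ddx58* (-0.21), *Ifih1* (-0.045), *Tbk1* (-0.039), *Tank* (-0.016), *Irf3* (-0.24), *Ifnar2* (-0.12), *Jak1* (-0.37) and *Tyk2* (-0.27), under median scaling for *Ddx58* (-0.090), *Tbk1* (-0.037), *Irf3* (-0.19), *Jak1* (-0.22) and *Tyk2* (-0.23), with the positive controls for *Irf3* (-0.090), *Jak1* (-0.12) and *Tyk2* (-0.13), and relative to the leukocyte list for *Ddx58* (-0.66), *Ifih1* (-0.48), *Tbk1* (-0.61), *Ikbke* (-0.19), *Tank* (-0.53), *Irf3* (-0.76), *Ifnar2* (-0.56), *Stat2* (-0.25), *Jak1* (-0.79) and *Tyk2* (-0.80), since the list rose. With the 10 reference genes *Mavs* (0.0059) and *Ifngr1* (0.039) turned, and with single tumors left out *Mavs* (-0.075 to 0.042), *Ifngr1* (-0.11 to 0.055) and *Tyk2* (-0.063 to 0.12). The cause was not tested.

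The replicate numbers occur in both groups for 8 tumors, whose deviations correlated at 0.035, 0.050, 0.17 and 0.35, and with 2 of the 4 near 0 the numbers were not taken to pair the tumors. The labels do not say whether they mark a litter or cartridge. With the replicate block 2 of the 10 genes passed, where 30.5% of all probes did, and 2 in the same tumors without the block, where 30.1% did. *Tank* and *Ifnar1* lost their call in both fits, at adjusted p in limma of 0.0633 and 0.165 with the block. The ratios, paired by number, were -0.20 for *Ddx58* over *Ifih1*, 0.46 for *Ikbke* over *Tbk1*, 0.41 for *Tank* over *Mavs*, 0.52 for *Stat2* over *Irf3* and 0.46 for *Ifnar2* over *Ifnar1*, each at an exact permutation p of 0.125, the smallest that 4 pairs allow. With single tumors left out the ratios were between -0.23 and -0.093, 0.36 and 0.51, 0.29 and 0.38, 0.37 and 0.61, and 0.45 and 0.57 in that order.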
